A study of Mus musculus with 6 samples.

Results

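The genes described are the AP-1 and immediate early genes Fos, Fosb, Fosl2, Jun, Junb, Jund, Atf3, Ier2 and Dusp1. They were taken by gene name from a table of 47729 genes, and each of the 9 matched 1 row. The table holds RNA-seq libraries of follicular helper T (Tfh) cells, which are CD4 T cells giving help to germinal centre B cells, sorted from mouse spleen as CD4+, TCRb+, PD1hi and CXCR5hi. All animals had received NP-OVA, a hapten-carrier antigen, by intraperitoneal injection. Of the 6 libraries, 3 are labelled dko (Cbl-/- Cbl-b-/-), for the genes of the ubiquitin ligases CBL and CBL-B, and 3 are labelled wt ctrl. The series asks how signalling from the costimulatory receptor ICOS through the CBL ligases bears on the Tfh programme. The labels do not state strain, age, the cells in which either gene was deleted, or whether each library came from a separate mouse. The p-values therefore describe only how far these samples spread, which may be technical.

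AP-1 is a dimer of basic leucine zipper proteins, usually 1 from the FOS family and 1 from the JUN family. Immediate early genes such as these are transcribed within minutes of antigen receptor and MAP kinase signalling, from factors already present in the cell, and their mRNAs are short-lived. In T cells AP-1 binds DNA together with NFAT at cytokine and activation genes. The same genes are also known to be induced while tissue is taken apart and cells are sorted.

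Each library held between 23392254 and 38368885 gene reads. All 10 Tfh markers listed had reads in every library. None passed in limma on all 6 libraries at equal weight (adjusted p below 0.05). With DESeq2 2 of them fell and 1 rose (8.24% of genes passed), and with edgeR 1 fell (1.08% of genes fell). In the authors' deposited comparison and in limma with library weights 1 fell (2.52% and 4.40% of genes fell). Their summed level was 379602 to 403907 normalised counts in the double knockout and 478543 to 519079 in the controls. For Cbl, normalised counts were 2221 to 3856 in the double knockout against 8614 to 12945. For Cblb they were 7459 to 8054 against 6955 to 10037, overlapping groups that do not bear out the label by gene total (limma adjusted p = 0.703). The labels do not say which exons were deleted. The Y-linked gene Ddx3y stood at 0 to 7.16 in the double knockout and at 2812 to 3721 in the controls, while Xist stood at 12769 to 18100 and 12.9 to 970. Sex and genotype were thus aligned in all 6 libraries, and their effects cannot be told apart. Transcripts of other blood cells were also unequal. The summed level of 10 B cell and plasma cell markers was 1473 to 2098 normalised counts in the double knockout and 2257 to 3242 in the controls. Of that sum, Pax5 made up 773 to 1805 against 864 to 1345, overlapping groups. For 12 myeloid and dendritic cell markers the sum was 82.3 to 144.5 against 168.6 to 216, for 6 CD8 and natural killer cell markers 755 to 1853 against 2842 to 3421, and for 7 red cell and platelet markers 13.4 to 112.7 against 271 to 603. The CD8 and natural killer cell sum was carried by Klrb1c and Cd8b1, which fell, while the other 4 genes had overlapping groups. No gene in these 4 lists was at 0 in every library. Cd8a was at 0 in 4 libraries, and Fcer2a, Hba-a2, Cd14, Fcgr1, Flt3, Xcr1 and Siglech were at 0 in at least 1. The part of these other cells in the results below was not tested.

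The promoters of Jun, Fos, Fosb and Junb are shown because the groups did not overlap for the first 3 of these genes and did for Junb. Each window runs from 250 bases before the RefSeq transcription start to 50 after it, on the gene's own strand in GRCm38.p6. Capitals mark TGACATCA in Jun, and TGACG, the core of the site bound by CREB and ATF proteins, and TATAAA in the others. Jun lies at chr4:95052173-95052472 (minus strand), Fos at chr12:85473640-85473939 (plus), Fosb at chr7:19309996-19310295 (minus) and Junb at chr8:84978699-84978998 (minus).
Jun: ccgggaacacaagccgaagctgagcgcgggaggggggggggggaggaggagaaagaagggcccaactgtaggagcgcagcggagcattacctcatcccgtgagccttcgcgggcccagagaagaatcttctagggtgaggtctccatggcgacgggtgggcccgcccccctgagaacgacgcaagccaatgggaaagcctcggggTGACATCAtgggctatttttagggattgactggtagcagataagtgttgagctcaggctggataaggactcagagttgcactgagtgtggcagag
Fos: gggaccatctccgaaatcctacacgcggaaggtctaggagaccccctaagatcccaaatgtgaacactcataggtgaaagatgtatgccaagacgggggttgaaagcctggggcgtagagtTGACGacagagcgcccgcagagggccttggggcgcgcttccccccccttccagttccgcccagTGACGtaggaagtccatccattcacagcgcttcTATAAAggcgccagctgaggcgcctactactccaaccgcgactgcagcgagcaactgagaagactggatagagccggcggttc
Fosb: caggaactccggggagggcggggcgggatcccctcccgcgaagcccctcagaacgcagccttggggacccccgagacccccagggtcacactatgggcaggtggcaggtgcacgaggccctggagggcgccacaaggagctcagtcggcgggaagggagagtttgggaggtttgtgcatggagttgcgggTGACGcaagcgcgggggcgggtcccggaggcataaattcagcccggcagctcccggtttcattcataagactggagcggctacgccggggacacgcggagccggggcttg
Junb: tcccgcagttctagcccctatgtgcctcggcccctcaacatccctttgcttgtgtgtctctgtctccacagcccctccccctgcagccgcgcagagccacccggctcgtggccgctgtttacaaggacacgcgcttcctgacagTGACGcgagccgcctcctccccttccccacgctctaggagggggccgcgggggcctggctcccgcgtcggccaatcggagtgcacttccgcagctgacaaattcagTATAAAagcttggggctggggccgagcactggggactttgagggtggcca

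The RefSeq table held windows for 8 of the 9 genes (Ier2 was not matched). On either strand, TGACG was found in 5 of the 8 windows, those of Fos, Fosb, Junb, Dusp1 and Atf3, and in 20.8% of all 32851 windows. Fos held it 129 and 66 bases before the start, Fosb 60 and Junb 106 bases before it. Dusp1 alone held the full palindrome TGACGTCA, which contains that core, 143 bases before its start (1.79% of all windows). TGACATCA, a variant of the palindrome, was found in Jun alone among the 8, 45 bases before the start (3.62% of all windows). Neither TGANTCA, a pattern wider than the classical AP-1 site that it includes (7.81% of all windows), nor the CArG box bound by serum response factor (1.63%) was found in any of the 8. TATAAA was found in Fos, 33 bases before the start, and in Junb, where it began at the RefSeq start itself (13.6% of all windows). The RefSeq window of Jund lies upstream of its gene model in the annotation used below. Those of Dusp1, Atf3 and Fosl2 lie inside their gene models, past the start annotated there. These are matches of letters in a short window and do not show binding. Sites outside the window were not searched, so a motif not found here may lie further away.

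Levels are given as normalised read counts, in which the authors scaled each library by its own size factor. A negative log2 fold change, computed on log2(value + 1), means a lower level in the double knockout. Ier2 fell in the double knockout, by 1.48-fold, and was the only 1 of the 8 genes tested that passed (limma, adjusted p below 0.05), where 2.93% of the 13602 genes tested passed and 1.07% passed as lower. Jun, Fosb and Fos were 1.85-fold, 1.65-fold and 1.53-fold lower by the fitted value, and every double knockout library lay below every control, but none of them passed. Fosl2 had the opposite sign, Junb and Jund had fold changes near 0 and overlapping groups, and Dusp1 overlapped too. Groups did not overlap, with the double knockout lower, for 4 of the 8 genes and for 11.3% of all genes tested. In whole sorted cells, fewer cells with a transcript and less transcript per cell cannot be told apart. Atf3 had too few reads to be tested.

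**Figure D1:**
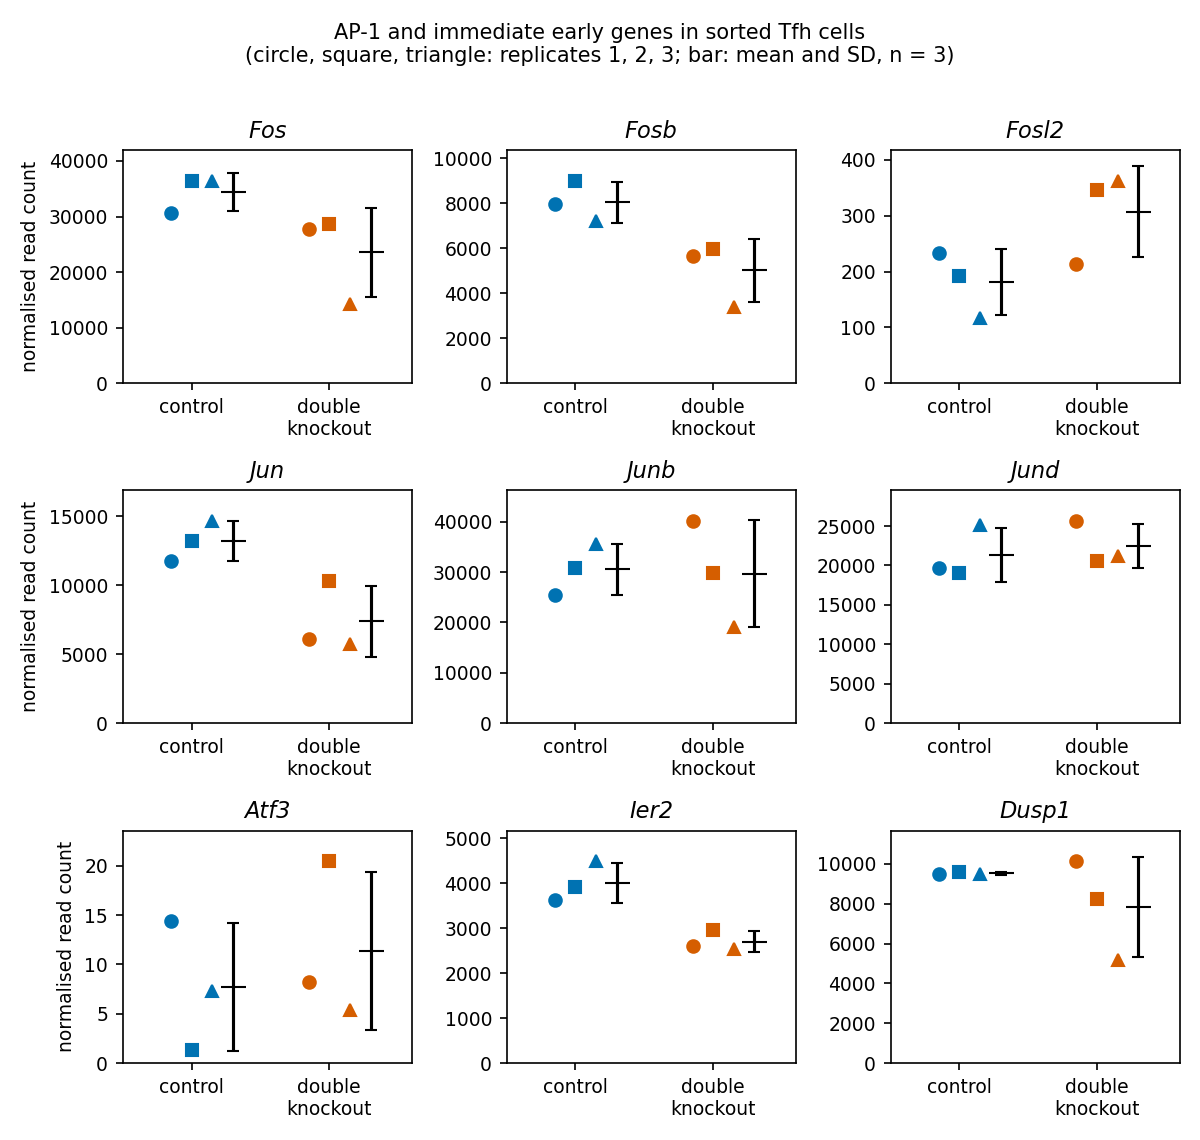
Normalised read counts (vertical axes, linear from 0) of the 9 genes in each control and double knockout library, with the mean and SD over n = 3. Fos, Fosb, Jun and Ier2 have no overlap between groups, and double knockout replicate 3 is the lowest of its group in 6 of the 8 genes tested.

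Among the FOS family, Fos (ENSMUSG00000021250, GRCm38 chromosome 12, 85473890 to 85477273, plus strand) encodes the prototype partner of JUN. Its normalised counts were 27727, 28577 and 14317 in double knockout replicates 1 to 3 and 30544, 36418 and 36313 in control replicates 1 to 3. All double knockout values were lower than all controls, and replicate 3 stood well below the other two. The log2 fold change was -0.61 (95% confidence interval -1.20 to -0.02, limma adjusted p = 0.276). Without double knockout replicate 3 it was -0.29 (limma adjusted p = 0.326).

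Fosb (ENSMUSG00000003545, chromosome 7, 19302696 to 19310051, minus strand) encodes a FOS relative with a full-length and a truncated form, which gene totals do not separate. It stood at 5660, 5970 and 3389 in the double knockout and at 7940, 8986 and 7188 in the controls. As for Fos, the groups did not overlap and double knockout replicate 3 was lowest. The fitted log2 difference was -0.72 (95% confidence interval -1.21 to -0.23, limma adjusted p = 0.123), and -0.46 without that replicate (limma adjusted p = 0.106).

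Fosl2 (ENSMUSG00000029135, chromosome 5, 32135801 to 32157842, plus strand) encodes FRA2, a FOS relative without the strong activation domain of FOS. It stood at 213, 346.6 and 362 in the double knockout and at 234, 192 and 117 in the controls. Replicates 2 and 3 of the double knockout lay above every control, and replicate 1 lay among them. On the log2 scale the difference was 0.78 (95% confidence interval 0.06 to 1.501, limma adjusted p = 0.255), and it stayed positive in the 6 fits on 5 libraries (0.50 to 1.02).

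Among the JUN family, Jun (ENSMUSG00000052684, chromosome 4, 95049034 to 95052222, minus strand, 1 exon) encodes c-JUN, a target of JNK. It stood at 6110, 10316 and 5707 in the double knockout and at 11732, 13208 and 14676 in the controls. The groups did not overlap, and double knockout replicate 2 stood apart from the other 2 of its group, towards the controls. The same library held 5451 normalised counts of Foxp3, which marks regulatory T cells. The other double knockout libraries held 150 and 295, and the controls 286 to 768. Foxp3 was chosen after its values were seen. This library was also the highest of its group for Fos, Fosb, Ier2 and Atf3. The part of Foxp3-expressing cells in the levels of Jun and these genes was not tested. For Jun the log2 fold change was -0.89 (95% confidence interval -1.39 to -0.39), the largest in size of the 8, with a limma adjusted p of 0.0757. Without double knockout replicate 2 it was -1.15 and passed (adjusted p = 0.00582). An antisense gene, Junos, overlaps its exon and averaged 40.4 normalised counts.

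Junb (ENSMUSG00000052837, chromosome 8, 84974484 to 84978718, minus strand), whose product drives activation and helper T cell genes with BATF, stood at 40195, 29842 and 19067 in the double knockout and at 25458, 30736 and 35543 in the controls. The highest and the lowest of the 6 values were both double knockout. The log2 fold change was -0.09 (95% confidence interval -0.69 to 0.50, limma adjusted p = 0.907), and it turned to 0.19 without double knockout replicate 3. The end of Junb overlaps exons of Prdx2 on the other strand, which averaged 3957 normalised counts. Jund (ENSMUSG00000071076, chromosome 8, 70698949 to 70700616, plus strand, 1 exon), the JUN relative that resting cells also express, stood at 25657, 20598 and 21180 against 19684, 19021 and 25192. Its groups overlapped throughout, with a log2 fold change of 0.08 (95% confidence interval -0.25 to 0.42, limma adjusted p = 0.843), which turned to -0.017 without double knockout replicate 1. The antisense gene Gm11175 overlaps Jund and averaged 939 normalised counts. The intervals of Junb and Jund still allow changes of the size fitted for Ier2 in the case of Junb, but not in the case of Jund.

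Ier2 (ENSMUSG00000053560, chromosome 8, 84661331 to 84662852, minus strand, 1 exon) encodes a short nuclear protein induced by growth factors. It stood at 2613, 2960 and 2527 in the double knockout and at 3619, 3920 and 4497 in the controls. The 3 double knockout values lay close together, with a coefficient of variation of 8.50%, and all lay below the controls. The log2 fold change was -0.57 ± 0.12 (SE; 95% confidence interval -0.83 to -0.30), with a limma adjusted p of 0.0421. Dropping a single library ended the call in 5 of 6 cases. Adjusted p was 0.175 and 0.0878 without double knockout replicates 1 and 3, and 0.103, 0.131 and 0.0882 without control replicates 1, 2 and 3. The fitted difference ran only from -0.64 to -0.48 across these fits. With the replicate number as a block, which the labels do not say pairs the libraries, adjusted p was 0.0709.

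Dusp1 (ENSMUSG00000024190, chromosome 17, 26505590 to 26562128, minus strand) encodes a phosphatase that switches off JNK, p38 and ERK. It stood at 10150, 8226 and 5161 in the double knockout and at 9490, 9602 and 9480 in the controls. The controls differed by less than the double knockout libraries did, with a coefficient of variation of 0.715% against 32.1%. The fitted log2 difference was -0.33 (95% confidence interval -0.84 to 0.17, limma adjusted p = 0.5004), -0.06 without double knockout replicate 3 and -0.55 without replicate 1. Ergic1 overlaps exons of Dusp1 on the other strand and averaged 2636 normalised counts. It begins at base 26561489, so the overlap is only at the upstream end of the Dusp1 gene model. The RefSeq window of Dusp1 lies far from it, at 26508423 to 26508722.

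Atf3 (ENSMUSG00000026628, chromosome 1, 191170296 to 191218039, minus strand), a stress-induced factor of the same zipper class, was covered by 8, 25 and 6 reads in double knockout replicates 1 to 3 and by 14, 1 and 8 in control replicates 1 to 3. The groups overlapped, and the gene reached 10 normalised counts in fewer than the 3 libraries required for testing. No difference was detectable at this depth. The other 8 genes had between 127 and 39540 reads in each library.

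**Figure D2:**
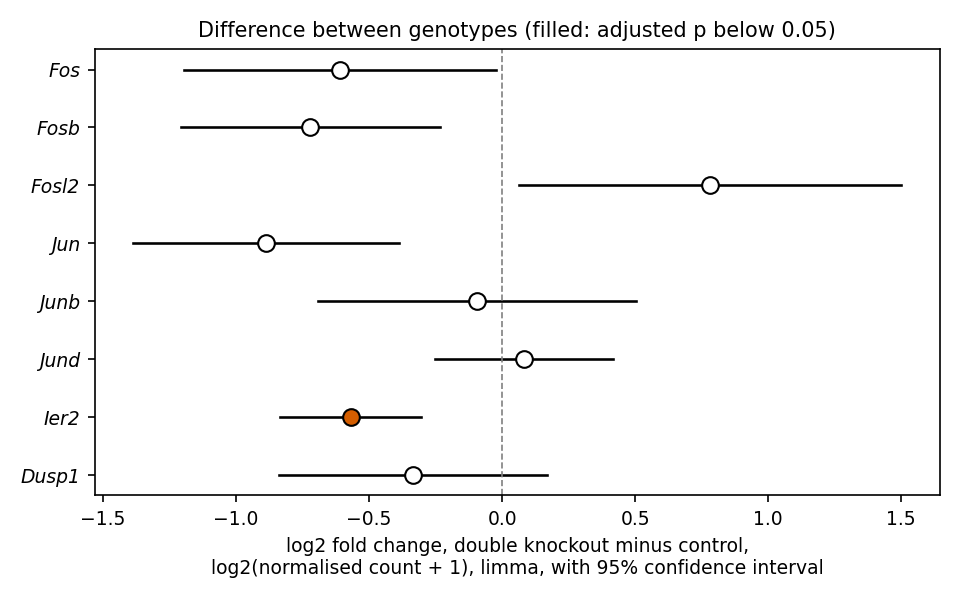
Log2 fold change of the 8 genes tested (horizontal axis, double knockout minus control, log2(normalised count + 1)) with the 95% confidence interval from limma. Only Ier2, at -0.57, is filled as passing, while Fos, Fosb and Jun have negative intervals that leave out 0 without passing after adjustment.

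Other tests on the same libraries called more of the genes. With DESeq2 on the recovered reads, Ier2, Jun and Fosb were lower (adjusted p = 0.00569 for Jun and 0.0269 for Fosb), where 8.24% of genes passed and 3.27% passed as lower. In the authors' deposited table the same 3 genes were lower, with adjusted p of 0.00352 for Ier2, 0.0049 for Jun and 0.0268 for Fosb, where 6.61% of genes passed and 2.52% passed as lower. The same 3 passed in limma with library weights (10.1% of genes passed, 4.40% as lower), and Ier2 and Jun passed without double knockout replicate 2 (3.73%, and 1.83% as lower). With edgeR's quasi-likelihood test Ier2 alone passed (2.98%, and 1.08% as lower). Of the 8 genes, 5 had an unadjusted limma p under 0.05, against 17.0% of all genes tested, and 7.47% as lower. Those 5 were Fos, Fosb, Jun and Ier2 on the lower side and Fosl2 on the higher side. The median log2 fold change over the 8 was -0.45, and over all genes tested -0.0011. Over the 8 it was -0.17 without double knockout replicate 3 and -0.25 with library weights. The members had been chosen with results of these data known, so these counts describe them and are not evidence about the set.

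**Figure D3:**
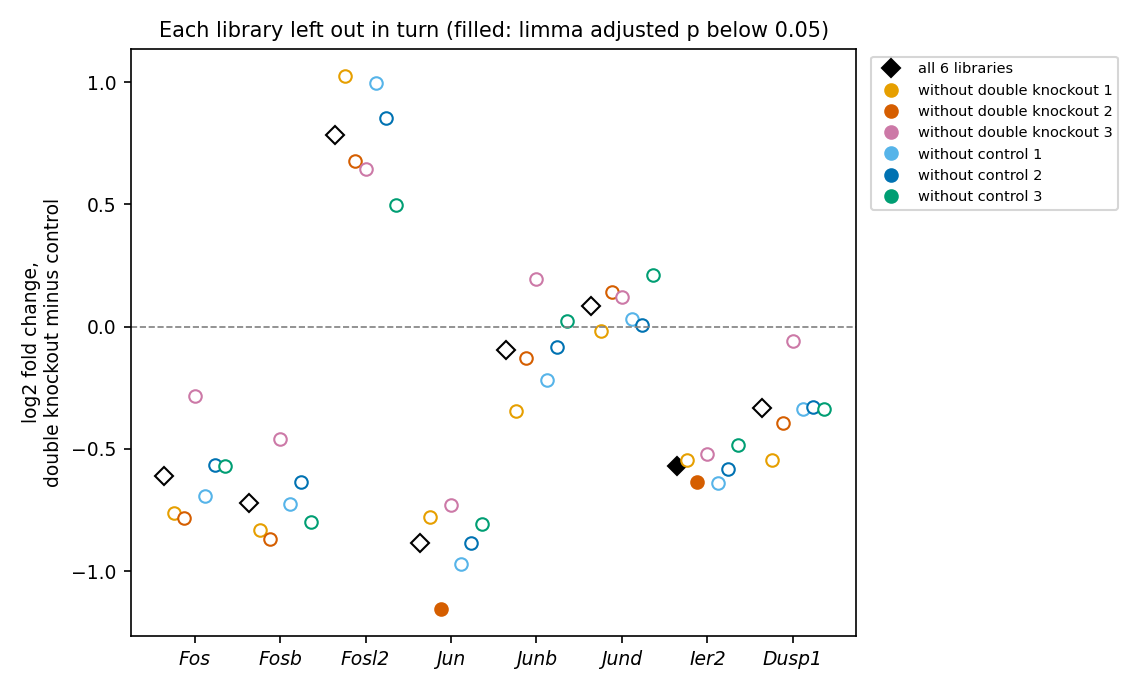
Log2 fold change (vertical axis) of the 8 genes tested with all 6 libraries (diamonds) and in the 6 fits on 5 libraries (circles), filled where limma's adjusted p is below 0.05. Fos, Fosb and Dusp1 move closest to 0 without double knockout replicate 3, Jun passes without double knockout replicate 2 at -1.15, and Ier2 stays between -0.64 and -0.48.

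The double knockout libraries were uneven in these genes. Replicate 3 was the lowest of the 3 for 6 of the 8 genes tested, whereas it was the lowest for 37.5% of all genes tested. Relative to replicate 1, it held 0.516 of the level of Fos, 0.474 of Junb and 0.508 of Dusp1, but 0.967 of Ier2 and 0.934 of Jun. The coefficient of variation over the double knockout libraries was 34.0% for Fos, 34.6% for Jun and 35.6% for Junb, against 9.76%, 11.1% and 16.5% over the controls. It was higher in the double knockout for 5 of the 8 genes and lower for Ier2, Jund (12.3% against 15.9%) and Fosl2 (26.7% against 32.8%). Among the 5771 genes with a mean of at least 1000, the median was 9.64% in the double knockout and 8.97% in the controls, and 53.8% of them varied more in the double knockout. Replicate 3 was also the library with the most Mki67, a marker of cycling cells (26640 normalised counts, against 16174 and 7630 in replicates 1 and 2 and 8397 to 10016 in the controls). Whether cycling bears on the low values was not tested.

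Levels can be compared between the genes only per length of exon. In normalised counts per kb of exon, the control order was Fos (14637 ± 1429, SD, n = 3), Junb (13289 ± 2192), Jund (12769 ± 2031), Jun (4141 ± 462), Dusp1 (2876 ± 20.6), Ier2 (2636 ± 293), Fosb (1287 ± 145), Fosl2 (18.7 ± 6.13) and Atf3 (3.57 ± 3.02). The first 3 did not differ beyond their spread, nor did Dusp1 and Ier2, and the other neighbours did not overlap. By this measure Fos stood above 99.5% of all genes tested that have a gene model, and Fosl2 above 17.1%. In the double knockout the order was Jund (13476 ± 1660), Junb (12908 ± 4591), Fos (10009 ± 3401), Dusp1 (2370 ± 760), Jun (2314 ± 800), Ier2 (1774 ± 151), Fosb (802 ± 226), Fosl2 (31.8 ± 8.47) and Atf3 (5.27 ± 3.73). There Jund overlapped with Junb, and Junb with Fos, but every Jund value (12349 to 15382) lay above every Fos value (6087 to 12150). Dusp1 also overlapped with Jun, and Jun with Ier2.

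The make-up of each family followed from these levels. Per kb of exon, Jun made up 5.51%, 11.3% and 7.86% of the JUN family transcripts in double knockout replicates 1 to 3 and 13.9%, 14.3% and 13.1% in control replicates 1 to 3. The groups did not overlap for Jun, and did for Junb (44.0% ± 7.04 against 43.9% ± 2.27, SD, n = 3) and Jund (47.7% ± 6.95 against 42.3% ± 2.57). Fos made up 91.3% to 92.7% of the sum of Fos, Fosb and Fosl2 (Fosl1, too low to test, was left out) in the double knockout and 90.9% to 93.0% in the controls, and these ranges overlapped. Fosl2 made up 0.173%, 0.272% and 0.562% against 0.169%, 0.117% and 0.0726%, with replicate 1 of the double knockout just above the highest control. These shares were not tested.

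**Figure D4:**
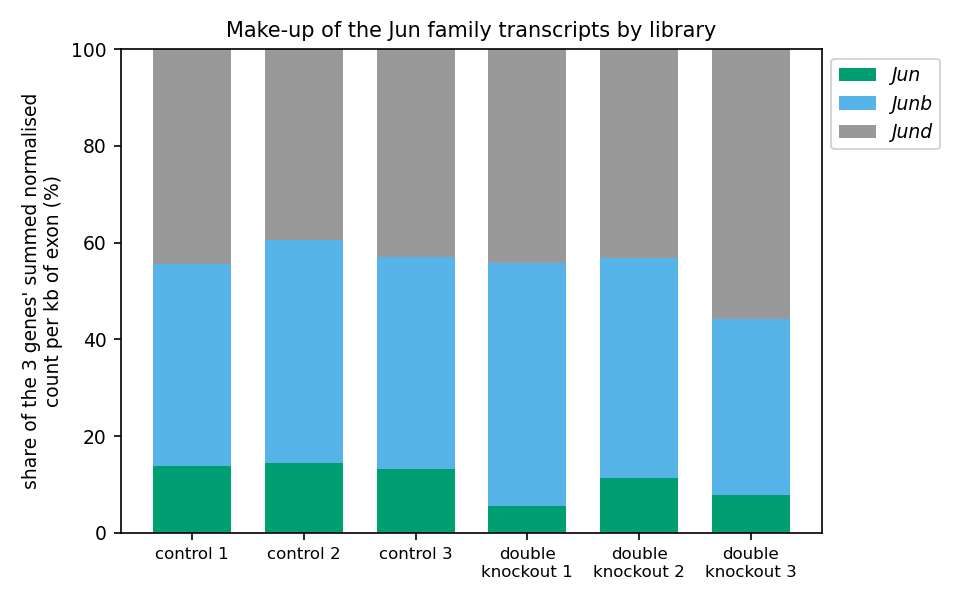
Share of Jun, Junb and Jund in their summed normalised count per kb of exon (vertical axis, percent) in each library. Jun takes 13.1% to 14.3% in the 3 controls and 5.51% to 11.3% in the 3 double knockout libraries.

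In their gene models (GENCODE M21, GRCm38), 3 of the 9 genes, Jun, Jund and Ier2, have a single exon, as do 2.27% of the coding genes tested. Junb, Jund and Ier2 lie on chromosome 8. Ier2 has the shortest exon length of the 9, 1522 bases, against a median of 4511 over the coding genes tested, and Fosl2 has the longest, 9680. Among the 10005 other genes searched, those closest in pattern to the mean of the 9 genes over the 6 libraries were Eci1, Runx1, Tceanc2, Mfap1a and Ggh (Pearson r from 0.977 to 0.992). That mean is swayed by Atf3, whose few reads vary most. Closest to Fos alone were Izumo4, Dnm2, Dusp5, Fam107b and Adgre5 (r from 0.983 to 0.994). Of these, Dusp5, a nuclear ERK phosphatase, stood at 522, 639 and 248 normalised counts in the double knockout and at 646, 814 and 914 in the controls. With 6 libraries in 2 groups such values are common: 161 genes had r above 0.9 with Fos.

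Other genes of the pathway were read from lists. Of 36 other immediate early genes, 35 were tested, 6 fell (1.07% of all genes tested fell) and 2 rose (1.85% rose), with a median log2 fold change of -0.13. These counts depended on single libraries: 1, 8 and 6 fell without double knockout replicates 1, 2 and 3. Without control replicates 1, 2 and 3, 3, 2 and 4 fell. None rose in limma without double knockout replicate 1 or 2 or any 1 control, nor with the replicate block, fits in which 13 to 16 of the 35 had an unadjusted p under 0.05 (2 rose with edgeR and 5 with DESeq2 on all libraries). Nr4a1, an orphan nuclear receptor induced by antigen receptor signals, fell (log2 fold change -1.22 ± 0.14, SE, limma adjusted p = 0.00882). It also passed in all 6 fits on 5 libraries. Klf10, a TGF-beta-inducible zinc finger factor, stood at 978, 1114 and 1037 in the double knockout and at 2675, 2166 and 1924 in the controls. It fell by 1.10 on the log2 scale (SE 0.14, adjusted p = 0.0106), and missed the threshold without double knockout replicate 1 (adjusted p = 0.0564). Egr3 fell by 0.92 (adjusted p = 0.0195), and missed it without double knockout replicate 1 (0.103), control replicate 2 (0.0866) or control replicate 3 (0.0552). The 2 that rose, Nr4a2 (1.53 ± 0.30) and Cd69 (0.48 ± 0.10), are named after their values were seen, and both missed the threshold in those fits. No difference between these genes and the 9 was tested.

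Of 24 other AP-1 and partner factors, 21 were tested, 1 rose (1.85% of all genes tested rose) and none fell (median -0.05). It was Crem, a cAMP-responsive relative of CREB whose short forms repress transcription. It stood at 512, 784 and 753 in the double knockout and at 303, 328 and 284 in the controls (log2 fold change 1.14 ± 0.19, SE, limma adjusted p = 0.0236). The call for Crem ended without double knockout replicate 3 (adjusted p = 0.0534) and without control replicate 1 (0.103), 2 (0.0768) or 3 (0.0664). Batf, the partner of JUNB in Tfh cells, had 8143 ± 2965 normalised counts against 7212 ± 931 (adjusted p = 0.856), and was chosen after its values were seen. Of 30 MAP kinase cascade genes, 29 were tested and 1 rose (1.85% of all genes tested rose), with a list median of 0.0060. It was Map3k5, which encodes the stress kinase ASK1 (0.73 ± 0.14, limma adjusted p = 0.0351). It missed the threshold in 4 of 6 fits on 5 libraries, those without double knockout replicate 1 (adjusted p = 0.125) and control replicates 1 (0.112), 2 (0.113) and 3 (0.0891). Map3k5 also missed it in limma with the replicate block (adjusted p = 0.0709). Of 16 MAP kinase phosphatases and ERK feedback genes, 15 were tested (median -0.09). None passed with limma or edgeR on all 6 libraries at equal weight. An unadjusted limma p under 0.05 was found for 3 of them, and for 17.0% of all genes tested. The smallest p belonged to Dusp4 (1229 ± 597 against 477 ± 75.6, limma adjusted p = 0.0734) and Spry4 (72.9 ± 26.0 against 32.2 ± 8.97, adjusted p = 0.184). Dusp4 passed as higher with DESeq2 (adjusted p = 0.000478), and in limma with library weights (0.0183) or without double knockout replicate 2 (0.0262).

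None of the 16 factors that bind immediate early promoters passed with limma or edgeR on all 6 libraries at equal weight (median 0.04). An unadjusted limma p under 0.05 was found for 4 of them (17.0% of all genes tested), and 3 passed with DESeq2 (8.24%). The smallest p belonged to Mkl1, a partner of serum response factor (3755 ± 489 normalised counts against 5385 ± 341, limma adjusted p = 0.0599), and Mef2d (3971 ± 483 against 2908 ± 77.2, adjusted p = 0.0803). Both passed with DESeq2, Mkl1 as lower (adjusted p = 0.00566) and Mef2d as higher (0.0157), and in limma with library weights (0.0225 and 0.0121). Mef2d also passed in limma without double knockout replicate 3 (0.0386). Of 18 NFAT and AP-1 targets of activated T cells, 15 were tested and 1 rose (1.85% of all genes tested rose), with a list median of 0.11. It was Tnfrsf4, which encodes the costimulatory receptor OX40 (1.20 ± 0.17, limma adjusted p = 0.0157). It missed the threshold without control replicate 1 (0.0775) or 2 (0.0605). Of the 15, 6 had an unadjusted limma p under 0.05 (17.0% of all genes tested). With DESeq2 3 of the list fell and 3 rose (8.24% of genes passed), and in limma with library weights likewise 3 and 3 (10.1%). In the authors' deposited comparison 1 fell and 2 rose (6.61%). The list's median turned to -0.11 without double knockout replicate 3 and to -0.04 with library weights. The medians of the MAP kinase cascade, the phosphatases and the promoter-binding factors also changed sign in at least 1 fit that left out a library. None of 15 heat shock and dissociation stress genes passed with limma or edgeR on all 6 libraries at equal weight. An unadjusted limma p under 0.05 was found for 5 of them (17.0% of all genes tested), and 2 passed with DESeq2 (8.24%). With library weights 4 passed in limma, all lower (4.40% of all genes tested passed as lower). The list's median was -0.46 in limma and -0.09 without double knockout replicate 1. Dnajb4 (192 ± 90.2 normalised counts against 378.7 ± 52.1, adjusted p = 0.116) and Dnaja1 (5420 ± 1278 against 7923 ± 830, adjusted p = 0.148) had the smallest p. Dnajb4 passed as lower with DESeq2 (adjusted p = 0.0342), and in limma with library weights (0.0254) or without double knockout replicate 2 (0.0138). Dnaja1 passed as lower with library weights (0.0225). The summed level of the heat shock list was 180240, 278324 and 338234 in double knockout replicates 1 to 3 and 307700 to 365925 in the controls. Much of that sum was Hsp90ab1, with 79676, 92804 and 141502 in double knockout replicates 1 to 3 and 93268 to 113939 in the controls. Hspa1a stood at 2779, 18534 and 12968 against 20369 to 27045, and Hspa1b at 8281, 44115 and 28008 against 42281 to 52864. They were chosen after their values were seen. The part of handling in the levels of the 9 genes was not tested.

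**Figure D5:**
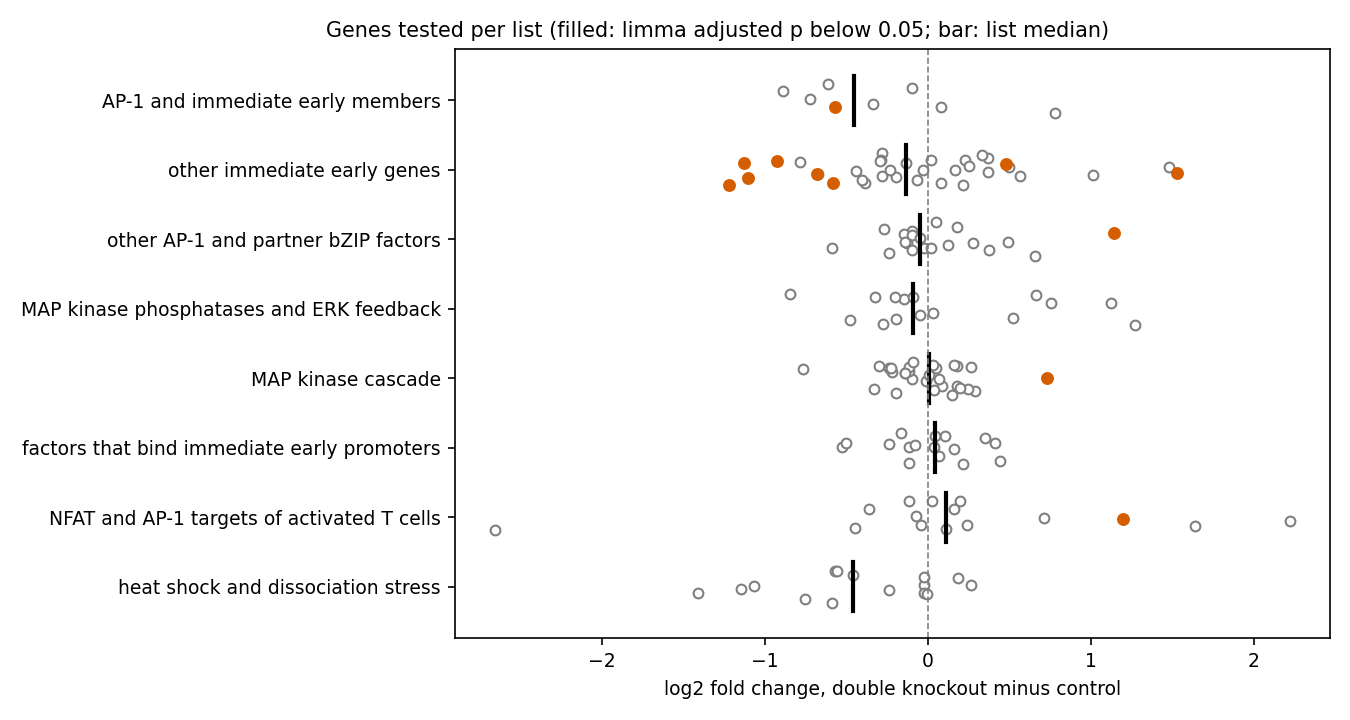
Log2 fold change (horizontal axis, double knockout minus control) of every gene tested in the 9-gene set and the 7 other lists, filled where limma's adjusted p is below 0.05, with a bar at the list median. Medians are -0.45 for the 9-gene set, of which 8 were tested, -0.13 for the other immediate early genes and -0.46 for the heat shock and dissociation stress genes.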

How the data were processed

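The deposited table gives normalised read counts per gene and library, a signal that the authors made by dividing counts by 1 size factor per library, per the file headers. GRCm38 and the tools STAR 2.5.1b, featureCounts 1.4.6 and, for DESeq2, version 1.12.3 appear without roles, per the submitters' processing notes. No label or header gives the annotation or the strand setting, and reads of overlapping antisense genes cannot be told apart. The authors' own log2 fold changes, test statistic (score) and p-values, deposited in the same table, served as an alternative.

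Every value was a whole multiple of its column's smallest value above 0 (100% of values, to within 0.001), which gave back whole reads. Genes with a value of at least 10 in at least 3 libraries were tested (13602) with limma-trend 3.58.1 (R 4.3.3) on log2(value + 1), two-sided, genotype as the only term, with Benjamini-Hochberg adjustment over all of them and a threshold of 0.05. Alternatives were edgeR 4.0.16, DESeq2 1.42.0, other pseudocounts, filters and scalings, library weights, a replicate block and each library left out. Leaving out X and Y genes was added after the data were seen. The fit was tested on simulated data, with no outcome given here. Libraries of a group differed beyond counting error (chi-square over degrees of freedom 10.5 to 95.2) and each counted as 1 replicate.

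Members and lists were chosen with earlier results of these data known. Named genes are all members, the targeted and sex-linked genes, per list up to 3 that passed by smallest p or otherwise 2, and the 5 closest in pattern with a mean of at least 50. Lengths come from GENCODE M21 on GRCm38, by Ensembl identifier.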

Additional observations from a re-analysis of the deposited data

How the results depend on the processing

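Ier2, Jun, Fosb, Fos, Dusp1 and Fosl2 kept their direction under all 18 alternatives. Junb turned with library weights (log2 fold change 0.27) and ran from -0.34 to 0.19 in the leave-one-out fits, with double knockout replicate 3 dropped giving the 0.19 and control replicate 3 dropped giving 0.02. In those fits Jund ran from -0.017 (without double knockout replicate 1) to 0.21. One member passed in the main test, and 3 passed with DESeq2, in the authors' deposited comparison and with library weights. With the replicate number as a block 0 passed in limma, where 4 had an unadjusted p under 0.05, as did 18.5% of all genes (1 passed with edgeR and 3 with DESeq2, both without a block). Between 0 and 2 passed with each library left out, where 3 to 6 had an unadjusted limma p under 0.05, as did 1600 of 13310 genes (without double knockout replicate 1) to 2308 of 13353 (without replicate 2). Over all genes, 398 passed, 1098 with DESeq2, 993 in the authors' deposited comparison, 1368 with library weights, 265 with the replicate block, and 58 to 498 with each library left out. Such fits have fewer libraries. The causes of these changes were not tested. Same-numbered libraries deviated together with r of 0.0739, 0.0538 and 0.0924, below the 0.1 used to call them paired, though each of the 6 correlated best with its own number, and the second principal component (17.7% of variance) placed same-numbered libraries together (4.09 and 2.26, -30.9 and -32.6, 25.0 and 32.2). This is a hint from the data and not the design. Atf3, with 1 to 25 reads a library, is the member that depth kept from being tested.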

Other observations

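Of the 35 other immediate early genes tested, 10 had every double knockout library below every control and 6 had every one above (11.3% and 12.3% of all genes tested). Of the 6, 3 are given here, chosen after their values were seen. Sik1, a salt-inducible kinase, stood at 1703, 831 and 615 normalised counts in double knockout replicates 1 to 3 and at 257, 388 and 398 in control replicates 1 to 3 (limma adjusted p = 0.0729). Nr4a2, an orphan nuclear receptor, stood at 506, 319 and 273 against 102, 173 and 103 (limma adjusted p = 0.0403, missed in 5 of the 6 fits that dropped a library). Per1, a clock gene, stood at 2789, 2404 and 2391 against 1940, 2057 and 1871 (limma adjusted p = 0.109). Nr4a1, of the same family as Nr4a2, fell by 1.22 on the log2 scale (limma adjusted p = 0.00882).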
